A study of Mus musculus with 1 sample.

Results

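The 8 genes Fshr, Lhcgr, Nr5a1, Nr0b1, Esr1, Esr2, Nr3c1 and Thra encode receptors through which pituitary and steroid hormones, glucocorticoids and thyroid hormone reach the testis, together with 2 orphan nuclear receptors of the same axis. They were taken by their symbols from the 27998 genes listed in the deposited matrix and described across Sertoli, stromal, peritubular myoid and germ cells. All values came from 1 library of wild-type C57BL/6 mouse testis at postnatal day 8. Cells of 3 mice were pooled in it in equal numbers, after enrichment for spermatogonia with magnetic beads against THY1, a surface protein, and a small number of unselected testis cells were added back. The numbers of somatic cells therefore follow from this mixture, the mice cannot be separated, and there is no biological replicate, so every interval below covers counting error only and no p-value is given.

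In the testis, follicle-stimulating hormone (FSH) acts through FSHR on Sertoli cells, the somatic cells of the seminiferous tubule that nurse the germ cells. Luteinizing hormone acts through LHCGR on Leydig cells of the interstitium, which make androgens. Nuclear receptors such as ESR1, NR3C1 and THRA sit inside the cell and switch genes on or off when their hormone binds them.

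The library held 970 cell barcodes with a median of 9115 unique molecular identifiers (UMIs, 1 per captured RNA molecule), and 920 cells were kept. Clustering with the 8 genes and their pathway companions left out of the variable genes gave 256 Sertoli-like, 186 stromal-like, 94 peritubular myoid-like and 260 germ cells, named from 6 markers each. The names were given by these same markers, so high sums in the named class were built in and are no support for the names. The 6 Sertoli markers summed to 7545 UMIs per 1000000 UMIs of a class (CPM) in Sertoli cells. They reached 392 CPM in stromal, 91.8 CPM in myoid and 76.5 CPM in germ cells. The 6 stromal markers summed to 7579 CPM in stromal cells and 36.7 CPM in Sertoli cells. The 6 myoid markers summed to 8831 CPM in myoid cells and 229 CPM in stromal cells. The 6 germ cell markers summed to 1337 CPM in germ cells and 33.2 CPM in Sertoli cells. Stromal and myoid cells overlapped most, since the stromal markers reached 2209 CPM in myoid cells. Germ cells had more UMIs per cell (median 19874) than Sertoli (8344.5), stromal (8370.5) and myoid cells (7446). The share of cells with a UMI is therefore also given after each cell was thinned to 5000 UMIs. No cluster was named for Leydig cells.

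The start regions of 4 of the genes are shown first. Fshr, Esr2 and Nr0b1 were highest in Sertoli cells in these data, and Lhcgr, the neighbour of Fshr, was highest in stromal cells. RefSeq promoters were found for 5 of the 8 genes. Each line gives the 250 bases before a transcription start in GRCm38.p6, 5′ to 3′ on the strand of the gene, with capitals for motif matches. They lie at chr17:89200676-89200925 (minus strand) for Fshr, chr12:76177260-76177509 (minus) for Esr2, chr17:88792015-88792264 (minus) for Lhcgr and chrX:86191525-86191774 (plus) for Nr0b1.
Fshr: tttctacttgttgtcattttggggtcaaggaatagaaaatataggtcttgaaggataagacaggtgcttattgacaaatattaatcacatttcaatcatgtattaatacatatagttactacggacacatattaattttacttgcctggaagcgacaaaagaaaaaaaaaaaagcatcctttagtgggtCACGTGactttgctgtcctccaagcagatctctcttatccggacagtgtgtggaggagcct
Esr2: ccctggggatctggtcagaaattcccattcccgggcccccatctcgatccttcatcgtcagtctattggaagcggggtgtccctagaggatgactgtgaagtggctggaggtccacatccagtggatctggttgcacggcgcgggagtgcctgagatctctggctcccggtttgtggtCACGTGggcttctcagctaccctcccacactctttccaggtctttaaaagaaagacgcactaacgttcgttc
Lhcgr: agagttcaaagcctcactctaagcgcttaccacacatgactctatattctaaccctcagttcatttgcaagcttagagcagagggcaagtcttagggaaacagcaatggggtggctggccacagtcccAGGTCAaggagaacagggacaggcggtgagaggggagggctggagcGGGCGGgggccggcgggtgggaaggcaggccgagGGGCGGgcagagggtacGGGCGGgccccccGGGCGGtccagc
Nr0b1: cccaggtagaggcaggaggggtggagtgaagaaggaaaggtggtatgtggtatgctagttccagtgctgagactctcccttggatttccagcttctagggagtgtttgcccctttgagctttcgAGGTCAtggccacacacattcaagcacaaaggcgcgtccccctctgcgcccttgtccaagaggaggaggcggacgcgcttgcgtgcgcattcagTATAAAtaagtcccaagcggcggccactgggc
5 motifs were searched on both strands, chosen after the sequences had been seen. The E-box CACGTG, a palindrome, occurred once in Fshr, from 61 to 56 bases before the start, and once in Esr2, from 72 to 67 bases before it, and in 6.02% of 32851 RefSeq promoter windows of the same length. The nuclear receptor half-site AGGTCA occurred in Lhcgr from 122 to 117 bases before the start and in Nr0b1 from 126 to 121 bases before it (14.02% of windows). Lhcgr had 4 matches to the GC box GGGCGG (32.7% of windows had any match), and Nr0b1 had TATAAA from 32 to 27 bases before its start (12.4%). AGATAA (9.99%) had no match in these windows. Nr0b1, also highest in Sertoli cells, had no CACGTG. A match is only a match of letters, and no binding was measured here. Whether these motifs bear on the cell class was not tested.

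Across the 4 classes, 5 of the 8 genes had at least 2 times the CPM in Sertoli cells that they had in the other 3 classes together (Esr2, Fshr, Nr5a1, Nr0b1 and Thra), against 18.3% of the 12596 genes with at least 20 UMIs. In stromal cells 3 did (Esr1, Lhcgr and Nr3c1), against 13.0% of genes. None did in myoid cells (11.1% of genes) or in germ cells (26.5%). The other 3 classes were pooled by UMIs, and germ cells held the most, 5228266. A gene low in germ cells can therefore pass this mark in several somatic classes. All 8 genes reached 20 UMIs, Esr2 with exactly 20. Fshr (44 of 44 UMIs in Sertoli cells), Esr2 (15 of 20 there) and Lhcgr (24 of 34 in stromal cells) did so only through 1 class. That class is the one where they passed the mark, so their part in these counts is a description only. The same minimum was used for all 12596 genes. Before thinning, a Sertoli cell carried UMIs of 2.05 of the 8 genes on average, a stromal cell 1.90, a myoid cell 1.43 and a germ cell 0.596. No UMI of any of them was found in 0.781% of Sertoli cells and in 49.2% of germ cells, or in 5.08% and 85.9% after thinning.

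**Figure D1:**
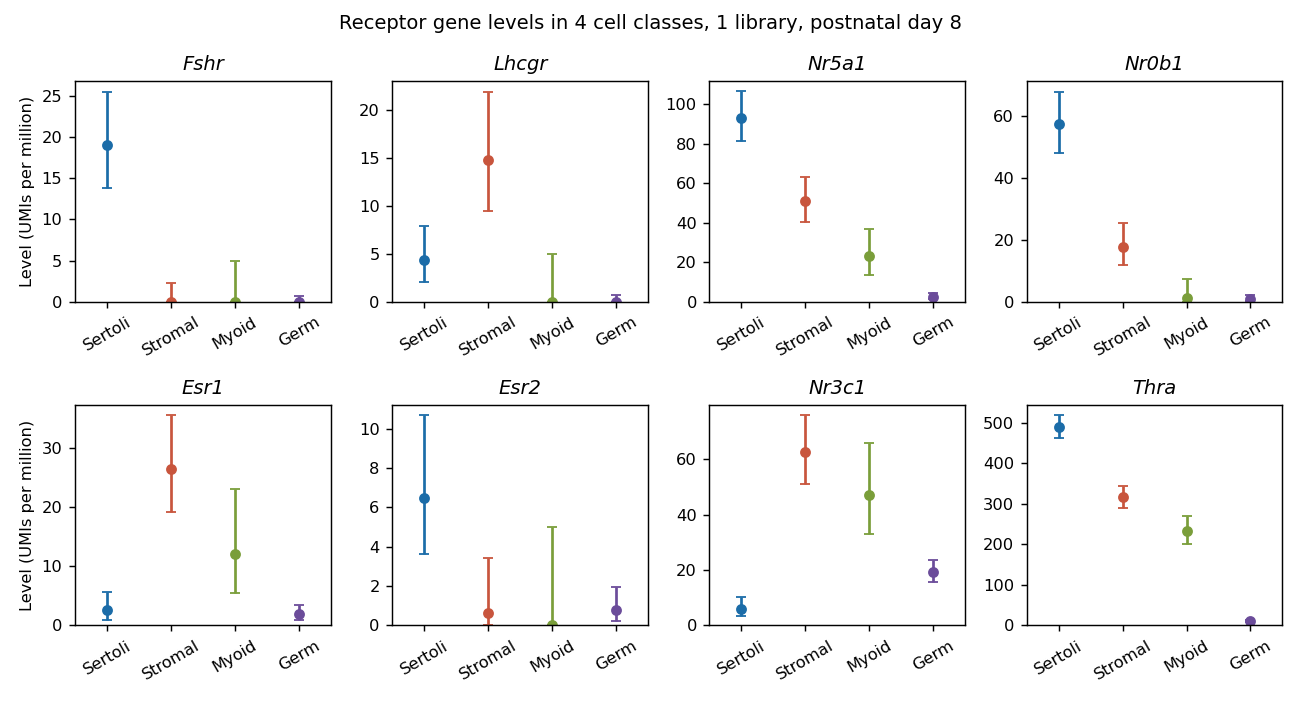
Level of each receptor gene (y axis, UMIs per 1000000 UMIs of the class, each panel on its own linear scale from 0) in the 4 cell classes of the 1 library; points are sums over the cells of a class and bars are exact 95% Poisson intervals for counting error. Fshr has UMIs only in Sertoli cells, Nr3c1 is lowest there at 6.04 CPM, and Thra ranges from 490 CPM in Sertoli to 10.7 CPM in germ cells.

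Fshr, the FSH receptor gene (ENSMUSG00000032937, chr17:88984952-89200675, minus strand of GRCm38), was found in Sertoli cells and in no other class. Sertoli cells held 44 UMIs in 41 of 256 cells, at 19.0 CPM (13.8 to 25.5). Stromal, myoid and germ cells held 0 UMIs, with intervals that reach up to 2.27, 4.98 and 0.706 CPM. With a floor of 3 counts over the other 3 classes together, the level in Sertoli cells was 48.1-fold higher. This bound leaves out the counting error of the 44 UMIs. A UMI was seen in 16.0% of Sertoli cells (11.7 to 21.1) and in 11.0% after thinning. At most 2 UMIs came from 1 cell, and 0 of 35 macrophage-like cells, which should lack the gene, had any.

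Lhcgr, the luteinizing hormone receptor gene (ENSMUSG00000024107, chr17:88716481-88791990, minus strand), lies 192961 bases from Fshr with 0 annotated protein-coding genes between them, and it was found in other cells. Stromal cells held 24 UMIs in 15 of 186 cells, at 14.7 CPM (9.44 to 21.9). Sertoli cells held 10 UMIs (4.31 CPM, 2.07 to 7.94), and myoid and germ cells held 0, with intervals that reach up to 4.98 and 0.706 CPM. The stromal level was 1.19 CPM with a mitochondrial limit of 5%, 22.3 CPM with variable genes by vst and 23.6 CPM without a mitochondrial limit. The 10 UMIs in the Sertoli class all came from 1 cell. That cell had 21938 UMIs, 377 of them from 6 Leydig cell markers (Star, Cyp11a1, Cyp17a1, Hsd3b1, Hsd3b6 and Insl3), 10 from the 6 Sertoli markers against a class median of 63, and 0 of Fshr. The log2 ratio of Sertoli over stromal and myoid cells was −1.23 (−2.46 to −0.11) with it and at most −2.95 without it.

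In the Sertoli and stromal classes, 24 of the 34 Lhcgr UMIs were in cells with Leydig markers. 10 cells had at least 5 UMIs of these markers: the Sertoli-class cell above and 9 cells of the stromal class, which held 313 of the 326 Leydig marker UMIs there. These 9 cells held 14 of the 24 stromal Lhcgr UMIs, at 125 CPM against 6.59 CPM in the other 177 stromal cells (log2 ratio 4.25, 2.97 to 5.58). Lhcgr was not seen in all of them: 5 of the 9 had a UMI, from 1 to 5 each. Of the other 10 UMIs, 9 were single UMIs in cells with 0 Leydig marker UMIs and 1 was in a cell with 3. In 3 stromal cells the 6 Sertoli markers reached the 5th percentile of Sertoli cells (27.5 UMIs), and these held 6 of the stromal Lhcgr UMIs, 5 of them in a cell that also had Leydig markers, and 3 of the stromal Esr1 UMIs. No cluster of their own held the cells with Leydig markers, and their number, 10, limits every value taken from them.

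**Figure D2:**
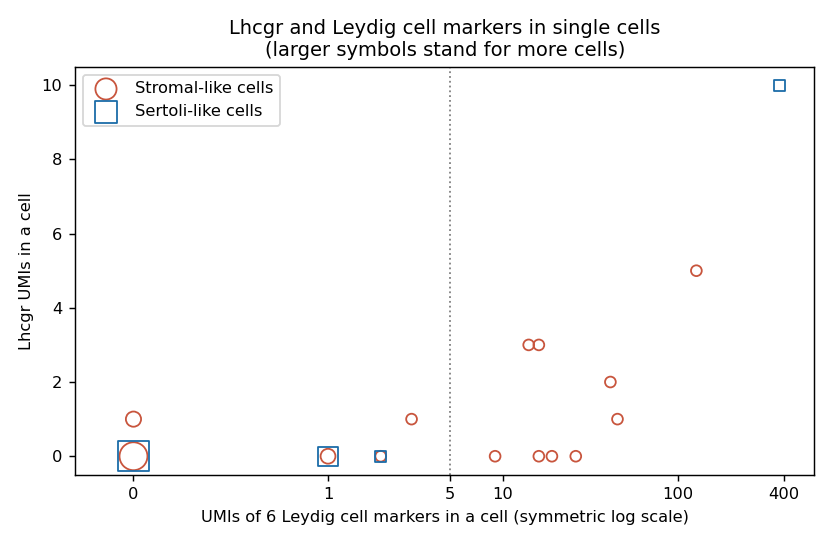
Lhcgr UMIs (y axis, linear) against UMIs of 6 Leydig cell markers (x axis, symmetric log scale) in single Sertoli-like and stromal-like cells, with larger symbols for more cells at the same values and a dotted line at 5 marker UMIs. The blue square at 377 marker UMIs is the only Sertoli-class cell with Lhcgr, and the stromal cell with most marker UMIs, 127, has 5 Lhcgr UMIs.

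The same 9 stromal cells differed from other stromal cells in the CPM of further receptors. Esr1 was at 134 against 18.5 CPM (log2 ratio 2.86, 1.85 to 3.82), so that 15 of the 43 stromal Esr1 UMIs came from 9 cells. Nr5a1 was at 125 against 45.5 CPM (1.46, 0.52 to 2.30), but 7 of its 14 UMIs lay in 1 cell. After thinning, an Nr5a1 UMI was left in 22.2% of these cells and in 20.9% of other stromal cells. Thra was lower, at 179 against 326 CPM (−0.87, −1.59 to −0.22). Nr3c1 had 0 of its 102 stromal UMIs in these cells, at least 2.504-fold lower than in other stromal cells. The 9 cells were picked by markers that include no receptor gene, but they may come from any number of the 3 mice.

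Nr5a1 encodes steroidogenic factor 1, a transcription factor that switches on steroid synthesis genes and Amh (ENSMUSG00000026751, chr2:38692656-38714542, minus strand). It was highest in Sertoli cells, with 216 UMIs and 93.2 CPM (81.2 to 106). Stromal cells had 51.0 CPM (40.6 to 63.2) and myoid cells 23.0 CPM (13.4 to 36.8). Each step of this order was larger than counting error: Sertoli over stromal had a log2 ratio of 0.87 (0.50 to 1.25) and stromal over myoid 1.15 (0.39 to 1.997). In stromal cells Nr5a1 was not limited to cells with Leydig markers, since 69 of its 83 UMIs lay outside them. Sertoli markers, the gauge of free RNA in the droplets, reached 10.4% of their Sertoli level in stromal and 2.99% in myoid cells at most, against 54.7% and 24.6% for Nr5a1. Germ cells had 2.49 CPM (1.32 to 4.25), which is 2.67% of the Sertoli level where the Sertoli markers stood at 0.678% to 1.30%. Macrophages, which should lack the gene, had 2 UMIs (3.88 CPM), and germ cells did not differ from them beyond counting error (log2 ratio −0.64, −2.78 to 2.55). The part of free RNA in these low values was not tested. The antisense gene Nr5a1os overlaps it, and the counting is not stated to use strand.

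Nr0b1 encodes DAX1, a nuclear receptor without a known hormone that represses NR5A1 (ENSMUSG00000025056, chrX:86191764-86195947, plus strand). Sertoli cells had 133 UMIs in 75 cells, at 57.4 CPM (48.0 to 68.0). Stromal cells had 29 UMIs (17.8 CPM, 11.9 to 25.6), myoid cells 1 and germ cells 5 (0.956 CPM, 0.311 to 2.23). The ratio of Sertoli over stromal and myoid cells was 2.18 on the log2 scale (1.60 to 2.80).

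The level of Nr0b1 differed between Sertoli clusters beyond counting error. The 3 Sertoli-like clusters are named here by genes picked from their top 10. These were Spata21, Tmie and Ptgds (130 cells), and Cidea, Stra6 and Rdh10 (80 cells), where Nr0b1 was itself in the top 10. Stra6 and Rdh10 act in retinoid uptake and oxidation. In the cluster of 46 cells they were Psrc1 and Cdc25b, genes of cell division, ranked behind Arhgef39, Lockd, Mybl1, Dct, Cdo1 and Scara3. In the Cidea/Stra6 cluster Nr0b1 was at 131 CPM (105 to 161). The other clusters had 25.6 CPM (17.2 to 36.8) and 28.1 CPM (15.4 to 47.2). The log2 ratio of the Cidea/Stra6 cluster over other Sertoli cells was 2.31 (1.77 to 2.87), and 51.2% of its cells had an Nr0b1 UMI against 19.2% and 19.6%. Nr0b1 did not take part in the clustering, but the clusters were made from the same cells, so this is a description. The size of the difference followed the clustering: over 11 other clusterings, the Sertoli cluster with most Cidea and Stra6 stood above other Sertoli cells by 0.97 to 2.54 on the log2 scale.

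No such split was seen for Nr5a1, Fshr or Thra. Nr5a1 was at 89.3, 100 and 92.3 CPM in the 3 clusters in the same order. Fshr was at 19.4, 14.5 and 24.1 CPM and Thra at 468, 503 and 524 CPM. For the Cidea/Stra6 cluster over other Sertoli cells the log2 ratio was 0.15 for Nr5a1 (−0.28 to 0.57), −0.52 for Fshr (−1.70 to 0.53) and 0.05 for Thra (−0.13 to 0.24). Nr5a1 and Nr0b1 were seen together in 45 of the 256 Sertoli cells, where the product of their shares gives 37.8. Fshr and Nr5a1 were seen together in 22, where it gives 20.7. The product takes no account of depth, which differed between cells (cluster medians from 7854 to 10475 UMIs), so no link between the genes can be read from these counts.

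**Figure D3:**
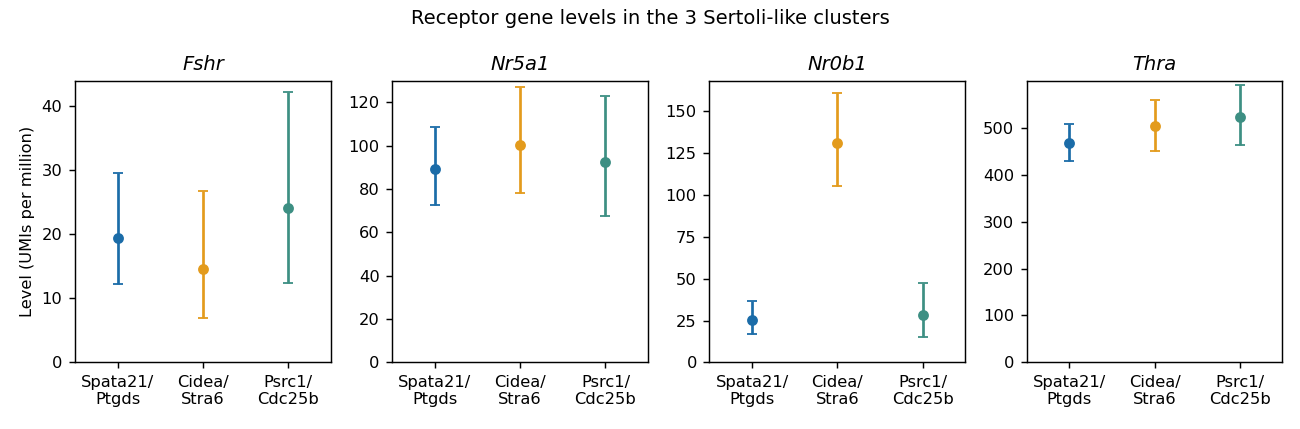
Levels of Fshr, Nr5a1, Nr0b1 and Thra (y axis, UMIs per 1000000, linear from 0) in the 3 Sertoli-like clusters, named by 2 of their top 10 genes; points are sums over 130, 80 and 46 cells and bars exact 95% Poisson intervals. Only the Nr0b1 panel has a cluster, Cidea/Stra6 at 131 CPM, whose interval lies apart from the others.

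In stromal cells Nr0b1 was found in 9 of 186 cells. Of its 29 UMIs, 25 were in 5 cells with 9, 8, 4, 2 and 2 each. All 5 belonged to the smaller of the 2 stromal clusters seen at a finer resolution of 1.2 (60 cells, led by Clec3b, Dpt, Mfap5 and Pi16, genes of connective tissue fibroblasts). They carried 0 to 2 UMIs of the 6 Sertoli markers, 0 of the Leydig markers and 66 to 155 of the 6 stromal markers. The other stromal cluster (126 cells, led by Aqp2, Vcam1, Cyp26b1 and Prlr) had 3 Nr0b1 UMIs, a log2 ratio of −3.98 (−6.35 to −2.28). The 3 cells with 4 or more UMIs were seen in a single library, so whether they recur was not tested.

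Esr1, encoding estrogen receptor alpha (ENSMUSG00000019768, chr10:4611593-5005614, plus strand), was highest in stromal cells, with myoid cells next. Stromal cells had 43 UMIs (26.4 CPM, 19.1 to 35.6) and myoid cells 9 (12.2 CPM, 5.56 to 23.1). Sertoli cells had 6 (2.59 CPM, 0.950 to 5.63) and germ cells 10 (1.91 CPM, 0.917 to 3.52), and these neighbours did not differ beyond counting error (log2 ratio 0.44, −1.31 to 2.04). Sertoli over stromal and myoid cells gave −3.08 (−4.59 to −1.87). The stromal level was 7.14 CPM with a mitochondrial limit of 5%. The stromal over myoid ratio of 1.12 (0.06 to 2.34) was barely above counting error, and its sign turned under the same limit (−0.66). Within the stroma the Aqp2/Vcam1 cluster had 36.1 CPM and the Clec3b/Dpt cluster 8.68 CPM (log2 ratio 2.06, 0.71 to 3.76). The 9 stromal cells with Leydig markers held 15 of the 43 UMIs, and their part in this difference was not tested. Other stromal cells had 18.5 CPM (12.3 to 26.7), against 12.2 CPM in myoid cells. All 24 stromal Lhcgr UMIs lay in the Aqp2/Vcam1 cluster too.

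Esr2, encoding estrogen receptor beta (ENSMUSG00000021055, chr12:76120419-76177259, minus strand), was distributed otherwise, though on few counts. Sertoli cells held 15 of its 20 UMIs, 1 in each of 15 cells (6.47 CPM, 3.62 to 10.7). Stromal cells had 1 UMI, myoid cells 0 and germ cells 4 (0.765 CPM, 0.208 to 1.96). The log2 ratio of Sertoli over stromal and myoid cells was 3.94, with a wide interval (1.24 to 9.33), and the Sertoli level was 2.198 CPM with a mitochondrial limit of 5%. The same-strand gene Gm7862 overlaps Esr2. After thinning, a UMI was left in 4.24% of Sertoli cells and in 0 of the 172 stromal, 90 myoid and 256 germ cells. Esr1 was thus higher in stromal and myoid than in Sertoli cells and Esr2 the reverse, and 1 Sertoli cell had UMIs of both.

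Nr3c1, encoding the glucocorticoid receptor (ENSMUSG00000024431, chr18:39410545-39519421, minus strand), was lowest in Sertoli cells. These held 14 UMIs (6.04 CPM, 3.303 to 10.1). Stromal cells had 102 UMIs (62.6 CPM, 51.1 to 76.0) and myoid cells 35 (47.3 CPM, 32.9 to 65.7), which did not differ beyond counting error (log2 ratio 0.41, −0.16 to 1.004). Germ cells had 101 UMIs (19.3 CPM, 15.7 to 23.5), more than Sertoli cells, whose log2 ratio over germ cells was −1.68 (−2.60 to −0.86). Nr3c1 was the only one of the 8 genes with more CPM in germ than in Sertoli cells.

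The Nr3c1 level of germ cells stood at 30.8% of the stromal level, whereas the 6 stromal markers stood at 0.121% to 1.97% of theirs in germ cells. Myoid cells (47.3 CPM) and macrophage-like cells (65.9 CPM) also held Nr3c1, and the part of free RNA in the germ cell level was not tested. Germ cells, which had more UMIs per cell, showed an Nr3c1 UMI in 78 of 260 cells. After thinning, a UMI was seen in 20 of 256 germ cells, or 7.81% (27.9% in stromal, 22.2% in myoid and 2.97% in Sertoli cells). Spermatogonial stem cells (94 cells), progenitors (80) and differentiating spermatogonia (86) had 19.7, 13.9 and 24.6 CPM, with no subclass different from the other 2 beyond counting error.

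Thra, encoding thyroid hormone receptor alpha (ENSMUSG00000058756, chr11:98740638-98769006, plus strand), was seen in most Sertoli, stromal and myoid cells. A UMI was seen in 96.9% of Sertoli, 89.8% of stromal and 86.2% of myoid cells, and in 90.7%, 80.2% and 68.9% after thinning. Sertoli cells had 490 CPM (462 to 520), stromal cells 316 CPM (290 to 345) and myoid cells 234 CPM (200 to 271). Each neighbour in this order differed beyond counting error, with log2 ratios of 0.63 (0.48 to 0.78) and 0.44 (0.19 to 0.69). Germ cells had 10.7 CPM (8.09 to 13.9), and the log2 ratio of the 3 somatic classes over germ cells was 5.18 (4.80 to 5.59). The germ cell level was 2.19% of the Sertoli level, where Sertoli markers stood at 0.678% to 1.30% and Thra in macrophages at 4.74%, and the part of free RNA in it was not tested. Thra shares 1075 bases with Nr1d1 on the opposite strand, and reads from there cannot be told apart without strand. Nr1d1 was at 21.8 CPM (17.99 to 26.2) in germ and 3.45 CPM (1.49 to 6.80) in Sertoli cells.

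**Figure D4:**
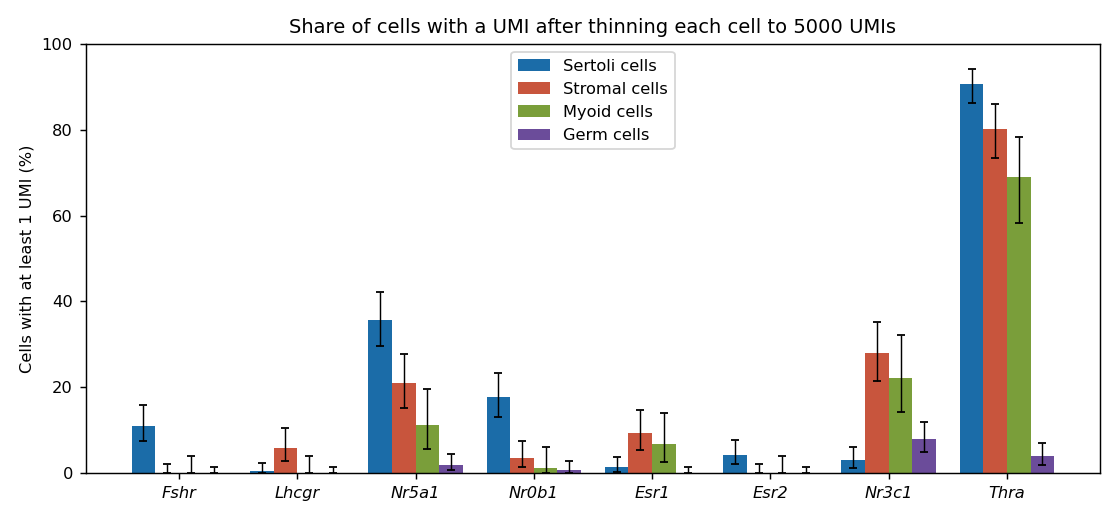
Percent of cells with at least 1 UMI of each receptor gene (y axis, from 0) in the 4 classes after each cell was thinned to 5000 UMIs (236 Sertoli, 172 stromal, 90 myoid and 256 germ cells); bars are shares and lines exact 95% binomial intervals. Thra reaches 90.7% of Sertoli cells and 3.91% of germ cells, and Nr3c1 is the gene with the largest germ cell share, 7.81%.

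The genes that work beside these receptors were described in 7 groups, whose counts stand against 18.3% of all tested genes past the 2-fold mark in Sertoli, 13.0% in stromal, 11.1% in myoid and 26.5% in germ cells. Of the 6 FSH-responsive Sertoli cell genes with 20 UMIs, 4 were past the 2-fold mark in Sertoli cells. The median log2 ratio of the 6 was 4.13 against −0.11 for all genes. They were listed as genes of Sertoli cells, so high levels there were partly built into the choice. A response to FSH was not tested. Inha and Inhbb, subunits of inhibin, were at 1350 and 169 CPM in Sertoli cells. Shbg was at 105 CPM there and Gdnf, a growth factor for spermatogonial stem cells, at 24.6 CPM. Trf and Fst were past the mark in germ cells instead. Cyp19a1, the aromatase that makes estrogen, had 0 UMIs. Among 10 genes of gonadotropin receptor signalling, 2 were past it in Sertoli cells (Prkar2b, a subunit of protein kinase A, at 113 CPM, and Pde4d), 2 in stromal, 2 in myoid cells and 1 in germ cells. Gnas, the stimulatory G protein, was at 773 CPM in stromal against 284 CPM in Sertoli cells, and Prkar1a at 117 and 198 CPM in Sertoli and germ cells.

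Of 13 steroid synthesis genes with 20 UMIs, 8 were past the mark in Sertoli cells (18.3% of all genes) and 5 in stromal cells (13.0%). Without the 10 cells with Leydig markers the counts were 5 and 1. The minimum of 20 UMIs was applied again there, so a gene could also drop out for lack of counts. The shares of all genes are those with the 10 cells kept. The genes that dropped out of the Sertoli count were Cyp11a1, Hsd3b1 and Cyp17a1, of which the Sertoli-class cell above held 134 of 137, 155 of 162 and 66 of 68 UMIs. Hsd17b1 and Hsd17b3, which interconvert weak and strong sex steroids, stayed at 196 and 221 CPM in Sertoli cells. Scarb1, the lipoprotein receptor for cholesterol, was at 110 CPM and Fdxr, an electron carrier for steroid enzymes, at 138 CPM. Fdx1 was at 110 CPM in Sertoli and 155 CPM in stromal cells, and Srd5a2 had 0 UMIs.

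Among the other hormone receptors with 20 UMIs, Thrb and Nr2f2 were past the mark in stromal and in myoid cells, Nr0b2 and Gper1 in Sertoli cells, and Nr5a2 in germ cells. Most of these rest on few counts, with 25 UMIs in the 4 classes for Thrb. Sertoli cells held 22 of 24 UMIs of Nr0b2 and 19 of 20 of Gper1, and germ cells 45 of 48 of Nr5a2. These last genes reached 20 UMIs only through the class where they passed the mark, so their calls are descriptions only. Nr2f2 was at 323 and 439 CPM in stromal and myoid cells against 2.16 CPM in Sertoli cells. Among 7 coregulators, Ncoa1, Ncoa2 and Nrip1 were past the mark in Sertoli cells, Ncoa1 in stromal cells, and Ncoa3 and Med1 in germ cells. Ncoa1 differed little between Sertoli (41.9 CPM), stromal (36.8 CPM) and myoid cells (39.2 CPM) and was at 4.40 CPM in germ cells. Ncor1, a corepressor of THRA, was at 175 CPM in Sertoli cells and 96.4 CPM in germ cells, and Med1 at 37.1 and 58.1 CPM.

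Of 7 genes that respond to glucocorticoids or carry their receptor, Fkbp4, Tsc22d3 and Sgk1 were past the mark in germ cells, Fkbp5 in Sertoli cells, Dusp1 in myoid cells and none in stromal cells (13.0% of all genes). Fkbp4, a chaperone of steroid receptors, was at 577 CPM in germ and 192 CPM in Sertoli cells. Tsc22d3, a glucocorticoid-induced gene, was at 267 CPM in germ and 45.4 CPM in stromal cells. Fkbp5 was at 81.6 CPM in Sertoli and 27.9 CPM in germ cells. Of the thyroid hormone genes only 3 reached 20 UMIs. Slc16a10, a transporter, was at 7.84 CPM in germ cells and Crym, a binding protein of the hormone, at 7.77 CPM in Sertoli cells. Dio2, which activates thyroid hormone, and Slco1c1 had 0 UMIs.

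Across the 10 clusters, 5 receptor genes had enough UMIs to be compared with 6530 others by Pearson r of log2(CPM + 10), a description over clusters of 1 library. Nr5a1 was most like Gata4, a transcription factor of gonadal somatic cells (0.985), Fdxr (0.984) and Adamts9 (0.983). Thra was most like Zfp771 (0.988), Nfia and Wbp5 (both 0.980). Nr0b1 was most like Creb5 (0.933), Fbxo17 and Scarb1 (both 0.929). Esr1 was closest to Asl (0.974), Wfdc1 (0.960) and Cyp26b1 (0.959), an enzyme that degrades retinoic acid, and Nr3c1 to Tnfaip8 (0.945), Tubb2a and Cd47 (both 0.930).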

How the data were processed

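Single-cell RNA sequencing of 1 wild-type library of 3 pooled mice was analysed, and the knockout library was not analysed here. Per the labels, libraries were made with 10x v2 chemistry, and Cell Ranger 2.1.0 and the build mm10 (GRCm38) are named in the submitters' processing notes. The authors deposited raw UMI counts per gene and barcode, without normalization. The shallowest barcode had 2655 UMIs.

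Barcodes were left out for fewer than 500 genes (10), for mitochondrial UMIs of 10% or more (36) and when scrublet (scanpy 1.11.5, expected rate 0.01) called a doublet (4). Seurat 5.3.0 (R 4.3.3) clustered log-normalized counts with 886 variable genes, 14 principal components and a resolution of 0.5, and the germ cells were clustered again. A cluster took the class whose markers were highest, and stayed unnamed with fewer than 3 markers in 10% of cells, another class's marker among its top 10 genes, or low depth with none of its own there. This naming rule was set after clusters had been seen, and 64 and 25 cells stayed unnamed.

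Levels are UMI sums of a class per 1000000 UMIs (CPM). The 95% intervals are exact, Poisson for levels, conditional binomial for ratios of CPM and Clopper-Pearson for shares of cells, and they cover counting error only. A count of 0 was replaced by 3 counts for bounds, which leave out the counting error of the other count. Companion medians used a pseudocount of 1 CPM. With 1 library there is no test. The 8 genes, the companion lists and the naming of genes by size were chosen with earlier results of these data known. Named companions are the 3 with most UMIs in each group, those past the 2-fold mark and those at 0, and for likeness the 3 genes of highest r per gene with at least 50 UMIs. Some companion genes are not reported here. Positions come from GENCODE M21. The clustering and ratio steps were tested on simulated data. Alternatives covered filters, clustering, a count split, weighting, thinning and left-out cells.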

Additional observations from a re-analysis of the deposited data

Results flagged for a closer look

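The following receptor gene signals lay in cells outside the 4 classes and above the limit that a count of 0 allows. In the 35 macrophage-like cells Nr3c1 had 34 UMIs (65.9 CPM, 45.6 to 92.1) and Thra 12 (23.3 CPM, 12.01 to 40.6). The Nr3c1 level of macrophages did not differ from that of stromal cells beyond counting error (log2 ratio of stromal over macrophage −0.07, −0.65 to 0.53), and the level in Sertoli cells was lower (−3.45, −4.46 to −2.51). The unnamed cluster of 64 shallow cells was led by the haemoglobin gene Hbb-bs, beside germ cell genes. Its 6 red blood cell markers summed to 31153 CPM and its 6 germ cell markers to 1561 CPM. Nr3c1 and Thra had 4 UMIs each in this cluster (12.2 CPM, 3.33 to 31.3). In the unnamed cluster of 25 cells led by genes of natural killer and T cells (Xcl1, Gzmc, Cd3g) and of pericytes (Rgs5, Higd1b), Nr3c1 had 7 UMIs (44.7 CPM, 17.98 to 92.1) and Thra 21 (134 CPM, 83.1 to 205). No other library was there to compare them with.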

How the results depend on the processing

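No paired analysis was possible because these data hold only 1 library. Of the ratios of the 8 genes between classes, 300 recomputed values stayed within the interval of the value reported, 8 moved out of it and 1 changed sign, and of those that are only bounds 2 lower and 9 upper bounds moved (65 and 2 did not). With a mitochondrial limit of 5%, which left 54 Sertoli, 87 stromal and 67 germ cells, the stromal level of Lhcgr was 1.19 CPM and that of Esr1 7.14 CPM, and the Sertoli level of Esr2 was 2.198 CPM. The Esr1 ratio of stromal over myoid cells then turned to −0.66 on the log2 scale and that of Sertoli over stromal and myoid cells to at most −0.45. Under that limit the somatic over germ cell ratio was at least 0.20 for Fshr, 3.59 for Nr0b1, 1.44 for Nr3c1 and 4.80 for Thra, and the Sertoli over stromal and myoid ratio was 1.47 for Nr0b1, −4.85 for Nr3c1 and 0.93 for Thra. The genes past the 2-fold mark were 1497 in Sertoli, 848 in stromal, 756 in myoid and 2050 in germ cells, against 1463, 883, 724 and 2122 with at least 100 UMIs and 940, 767, 566 and 1478 at a fold of 4. Lhcgr had 0 UMIs in the Sertoli class, and a Sertoli over stromal and myoid ratio of at most the value given, without a mitochondrial limit (−3.69), with at least 200 or 1000 genes per cell (−3.44 in each), with variable genes by vst (−3.35), with the receptor and companion genes among the variable genes or 10 principal components (−3.45 in each), without germ cells with Sertoli markers and somatic cells with germ cell markers (−2.74) and without the cell with most UMIs (−2.95). The Lhcgr ratio of somatic over germ cells was at least 1.94 without cells with Leydig markers, an alternative added after seeing the data. With clusters made from a random part of the counts and levels from the rest, Sertoli over stromal and myoid cells gave 1.52 for Nr5a1 and 0.59 for Thra. The Nr0b1 difference among Sertoli clusters kept its sign in 11 of 11 clusterings and left its interval in 7, the lowest being 0.97 with 10 principal components. The cause of these moves was not tested. Depth limits Esr2, Lhcgr and Fshr most, with 20 to 44 UMIs each, and the free RNA gauge limits low levels in germ cells.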
